A study of Mus musculus with 12 samples.

Results

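Whole lungs of mice labelled PPTA knockout were compared with lungs of wild-type mice, all taken 8 h after a sham operation. The comparison used every array of these groups, 3 knockout-labelled and 3 wild-type, which are 6 of the 12 arrays of the series. Each array measured total RNA of lung from mice aged 8 to 10 weeks. The labels name Balb/c as the strain of the wild type only. In every difference described here, strain and genotype cannot be told apart. The labels give neither the allele nor the part of the gene that was removed. The remaining 6 arrays, from the same genotypes taken at the same time after puncture of the ligated cecum (cecal ligation and puncture, CLP), a sepsis operation that lets gut bacteria into the abdomen, served as separate samples of the same genotype contrast. The replicates are named as triplicates, without saying whether each is a separate animal, and the p-values below therefore rest on a spread between arrays that may be technical.

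The label PPTA stands for preprotachykinin A, a precursor that the mouse gene Tac1 encodes. It is cut into substance P and neurokinin A, peptides that sensory nerve endings release in the airways, where they act on tachykinin receptors to dilate vessels, make them leaky and draw leukocytes. The precursor's products are trimmed and their ends amidated before release, and peptidases on cell surfaces break them down. By the labels, the sham groups give the genotype difference in lungs without abdominal sepsis.

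The gene named in the label went against it. Tac1 (chromosome 6) read 5.25, 8.34 and 2.80 on the wild-type arrays and 379, 441 and 530.3 on the knockout-labelled arrays, in units of scaled signal intensity. The groups did not overlap, and the means were 5.46 ± 2.78 and 450.4 ± 75.8 (SD, n = 3 each). The difference was 5.70 ± 0.26 (log2 of signal plus a pseudocount of 3.48, estimate and SE), with an adjusted p of 4.5e-05 by limma, and 4.97 in the CLP arrays. A second Tac1 probe set was below the filter, with signals of 12.1, 16.0 and 1.26 on the wild-type arrays and 6.66, 4.85 and 10.3 on the knockout-labelled arrays. Neither probe set could be placed inside or outside the deleted sequence, so it is not known whether either can check the label. The arrays are therefore called knockout-labelled throughout, and every direction below follows the labels as given. Since the wild-type signals lie far below the array medians, the size depends on the pseudocount, and it was 4.35 with a larger pseudocount of 17.4 and 6.38 with a floor in its place.

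Pam, the enzyme that amidates the ends of substance P and of many other peptides, was also far higher. It read 46.4, 50.1 and 56.6 on the wild-type arrays against 1237, 1388 and 1161 on the knockout-labelled arrays. The difference was 4.54 ± 0.12 (log2), adjusted p = 5.5e-06, and it was 4.60 in the CLP arrays. Npy, the gene for the sympathetic neuropeptide Y, was lower, at 73.5, 56.1 and 72.9 against 3.66, 19.5 and 5.60. Its log2 difference of -2.63 ± 0.43 passed the test (adjusted p = 0.012) but was kept in only 3 of 6 fits that left out 1 array, and it was -1.69 with the larger pseudocount. The highest adjusted p of those fits was 0.077, without wild-type array 3. Tac1 and Npy were the only called genes among the 12 tested members of a list of tachykinin and sensory neuropeptide genes, beside 6.08% of all genes tested. Without knockout-labelled array 3, 2 members were called higher and 5 lower, beside 17.3% of all genes. In the CLP arrays 3 were higher and 5 lower, beside 29.9%. With all arrays, the peptidases that degrade substance P were not called, with log2 differences of -0.23 for Mme (neprilysin), -0.52 for Ace, -0.48 for Ece1 and 0.16 for Dpp4. Calcb, which encodes a form of the sensory peptide CGRP, stood at 0.34. The CGRP and adrenomedullin receptor Calcrl stood at -0.11 and its partners Ramp1, Ramp2 and Ramp3 at -0.28, -0.26 and -0.47. Adm, the adrenomedullin gene, read 298, 229 and 49.7 on the knockout-labelled arrays, and its difference of -0.20 became 0.57 without array 3. Those called only without array 3 were Ace (-0.69), Ece1 (-0.47), Calcrl (-0.38) and Ramp2 (-0.56), all lower, and Adm, higher.

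**Figure D1:**
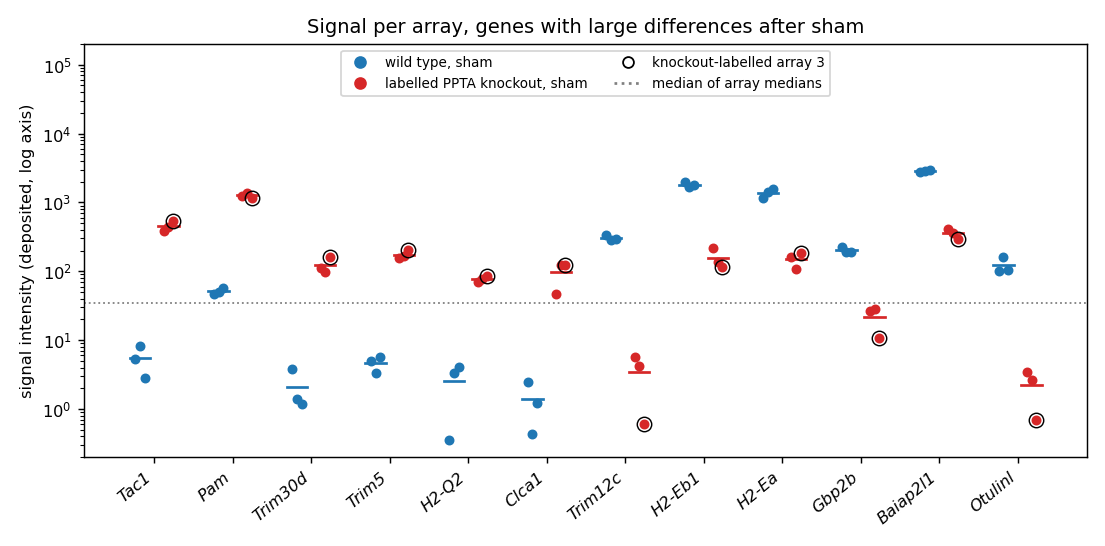
Signal intensity (log axis) of 12 named genes on each of the 3 wild-type (blue) and 3 knockout-labelled (red) sham arrays, with the group mean as a bar, knockout-labelled array 3 ringed and the median of the array medians (34.8) dotted. The genes shown were picked from called genes without overlap between the groups, so the lack of overlap follows from that choice. Over all probe sets it held for 30.0%. Tac1 lies near the floor in the wild type.

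One array stood apart. Knockout-labelled array 3 correlated at 0.939 to 0.940 with the other arrays of its group, which correlated at 0.982 with each other, while the wild-type arrays correlated at 0.984 to 0.987 (Pearson, log2 signal over tested probe sets). Against both other arrays of its group, it read 2-fold or more higher for 491 probe sets and 2-fold or more lower for 684. The median SD between replicates was 0.125 (log2) in the wild type, 0.219 in the knockout-labelled group and 0.112 in that group without array 3. Ratios of 3-prime to 5-prime control signal for Actb were 1.51 ± 0.0655 in the knockout-labelled and 1.51 ± 0.0239 in the wild-type arrays. Those of Gapdh were 0.764 ± 0.0351 and 0.821 ± 0.0178 (SD, n = 3), with exact two-sided permutation p-values of 0.9 and 0.1, where 0.1 is the smallest that 3 against 3 arrays allow. Adjusted over the 31 array measures compared, these were 0.962 and 0.31. As a check of the tissue, markers of alveolar type 1 and type 2 cells were above the array median on all 6 arrays for 13 of 13 and 14 of 14 tested genes. The share over all tested genes was 90.5%, so these counts say little about the tissue. No hepatocyte marker passed the filter.

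Of 22979 probe sets tested, 1425 (6.20%) were called at an adjusted p under 0.05, and on all of them the arrays of the groups did not overlap. Without a test, non-overlap held for 30.0% of all probe sets. The calls were 775 higher (3.37%) and 650 lower (2.83%) in the knockout-labelled lungs, and 682 (2.97%) were at least 2-fold, 415 higher (1.81%) and 267 lower (1.16%). Expressed as genes, each by its brightest tested probe set, 687 of 11308 (6.08%) were called, 387 higher (3.42%) and 300 lower (2.65%). Without array 3 the calls were 3703 probe sets (16.1%, with 8.59% higher and 7.53% lower), which included all 1425, and 1953 genes (17.3%, with 9.42% higher and 7.85% lower). Leaving out wild-type array 1, 2 or 3 gave 526, 540 and 532 calls, and leaving out knockout-labelled array 1 or 2 gave 913 and 929. Each of those fits has fewer arrays to estimate the spread. The balance of directions depended on the scaling: 54.4% of calls were higher as deposited, 40.2% after each array was centred on its median and 49.96% after quantile normalisation. These scalings moved the median difference of all probe sets from 0.0048 to -0.066 and -0.021 (log2).

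By representative probe set, the gene with the largest fall and 3 of the 12 largest rises lay in the Trim gene cluster of chromosome 7. Trim proteins of this cluster are ubiquitin ligases, some of which bind retroviral capsids, and many are induced by interferon. The 100 bases before the start of the 3 genes with the largest differences are shown: Trim5 and Trim12c share much of this sequence while their signals moved in opposite directions, and Trim30d is given for comparison. The sequences are those of RefSeq (C57BL/6J, GRCm38.p6), written 5-prime to 3-prime on the gene's strand, and the capitals mark the match to an interferon-stimulated response element, searched on both strands as GAAA, any 2 bases and GAAA.
Trim5 (chr7:104288107-104288206, minus strand): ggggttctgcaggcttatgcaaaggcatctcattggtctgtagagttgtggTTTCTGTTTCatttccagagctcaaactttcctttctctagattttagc
Trim12c (chr7:104353350-104353449, minus strand): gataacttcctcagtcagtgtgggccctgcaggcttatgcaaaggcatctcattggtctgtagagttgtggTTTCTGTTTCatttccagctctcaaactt
Trim30d (chr7:104507850-104507949, minus strand): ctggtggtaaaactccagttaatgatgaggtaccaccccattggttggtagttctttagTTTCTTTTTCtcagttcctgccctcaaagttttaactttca
Within these bases, Trim5 and Trim12c share 63 in a row without a difference, the match included. With Trim30d neither shares more than 7 in a row. In the 250 bases before the start, 5 of the 10 Trim list genes with a RefSeq promoter held the match. It occurred in 3.04% of all 27025 promoters and in 2.50% of those of tested genes, in 5.21% of genes called higher and in 1.78% of genes called lower. A match describes letters only.

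Trim12c read 338, 281 and 296 on the wild-type arrays and 5.61, 4.22 and 0.602 on the knockout-labelled arrays. Its difference was -5.55 ± 0.31 (log2), adjusted p = 0.00012, and it was called in all 16 alternative fits. Trim5 went the other way, from 4.94, 3.34 and 5.77 to 158, 165 and 201, a difference of 4.45 ± 0.22 (adjusted p = 7.3e-05). Trim30d stood at 3.78, 1.38 and 1.19 in the wild type, below the array median throughout, and at 112, 99.1 and 164 in the knockout-labelled lungs, with a difference of 4.52 ± 0.31 (adjusted p = 0.00028). Trim34a was higher too, at 10.1, 16.2 and 23.2 against 140.3, 131 and 394, or 3.36 ± 0.44 (adjusted p = 0.0046). A second Trim34a probe set, below the filter and not tested, ran the other way without overlap, at 28.3, 34.5 and 37.5 against 4.49, 5.57 and 6.07. Since one side of each of these lies near the floor, the size depends on the pseudocount: with 17.4 in place of 3.48 the differences were -3.95, 3.12, 2.84 and 2.67. The other 7 tested members of the list, among them Trim21, Trim25 and Trim30a, were not called, and the list's median was 0.42 against 0.012 over all genes. With all arrays 6.08% of all genes were called. Without array 3, 6 members were called higher and 1 lower, beside 9.42% and 7.85% of all genes. Near-identical copies in this cluster can share probes, so which of them a probe set measured is uncertain. In the CLP arrays the differences were -5.90 for Trim12c, 4.76 for Trim5, 4.95 for Trim30d and 4.41 for Trim34a.

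Genes of MHC class II, which presents peptides to CD4 T cells, were split. The promoters of a chain that was lower and of one whose probe sets disagreed are shown, with the class II Y box (CTGATTGG, both strands) in capitals, in the RefSeq sequence of the same build.
H2-Eb1 (chr17:34305767-34305866, plus strand): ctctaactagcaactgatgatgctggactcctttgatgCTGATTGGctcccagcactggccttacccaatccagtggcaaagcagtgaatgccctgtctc
H2-Aa (chr17:34287824-34287923, minus strand): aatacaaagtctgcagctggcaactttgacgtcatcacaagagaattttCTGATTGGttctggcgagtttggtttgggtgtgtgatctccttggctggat
The Y box was present in the 250 bases of 3 of the 10 class II list genes with a promoter and of 4.07% of all promoters. It was also present in 3 of the 11 class I list genes with a promoter and in 5.14% of promoters of tested genes.

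H2-Eb1, the beta chain of the I-E molecule, read 1949, 1675 and 1819 on the wild-type arrays and 219.6, 138 and 116 on the knockout-labelled arrays, a difference of -3.54 ± 0.21 (log2, adjusted p = 0.00017). H2-Ea, the I-E alpha chain, read 1169, 1396 and 1571 against 162, 109 and 187. Its difference was -3.17 ± 0.21 (adjusted p = 0.00023), and another H2-Ea probe set gave -5.30. Both chains were lower on every knockout-labelled array. The I-A alpha chain H2-Aa gave 3 answers by probe set: 0.79 ± 0.10 and -3.06 ± 0.20, both called, and -0.10 ± 0.12, not called. Ciita, the activator of class II transcription, was called higher at 1.02 ± 0.24 (adjusted p = 0.049), a call kept in 7 of 16 alternative fits. The call of Ciita held in 1 of the 6 fits that left out 1 array (adjusted p up to 0.18). In all, 2 of 15 tested class II genes were called higher and 2 lower, with a median of 0.17, beside 3.42% and 2.65% of all genes. Without array 3 the counts were 6 and 3, beside 9.42% and 7.85% of all genes. The chaperone Cd74 and the loading gene H2-DMa were not called, at 0.40 and 0.50.

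By the brightest tested probe set of each gene, MHC class I genes, which present peptides to CD8 T cells, were called in 1 direction: 5 of 14 higher, none lower. Their median was 0.49, and 3.42% of all genes were called higher. Other probe sets of H2-D1 were called lower, as given below. Without array 3 the count was 10 and the median 0.80, beside 9.42% of all genes called higher. In the CLP arrays 5 were called higher and 1 lower, where 29.9% of all genes were called. The class Ib gene H2-Q2 read 0.350, 3.29 and 4.01 against 69.9, 76.1 and 84.1, a difference of 3.79 ± 0.33 (2.24 with the larger pseudocount). The brightest H2-K1 probe set was higher by 0.82 ± 0.076, from 4286, 4123 and 3665 to 7229.6, 7172 and 6873. The other 3 tested were not called, at 0.49, 0.64 and -0.88, the last of them lower on every knockout-labelled array. The light chain B2m stood at 6761, 6277 and 5977 in the wild type and 8243, 8046 and 8440.2 in the knockout-labelled arrays, 0.38 ± 0.066 (adjusted p = 0.016). Psmb8, a subunit of the immunoproteasome, was called at 1.14 (adjusted p = 0.032). The peptide transporter genes Tap1 and Tap2 were at 0.86 and 0.47 and were not called. The call of B2m held in 4 of the 6 fits that left out 1 array (adjusted p up to 0.084).

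H2-D1 shows how far a value can depend on the probe set. Its brightest probe set read 5095, 4965 and 4637 in the wild type and 8037, 8642 and 8318 in the knockout-labelled arrays, 0.77 ± 0.065 (log2). Another read 3465, 3332 and 3030.3 against 16.2, 7.37 and 24.5, which is -7.50 ± 0.30. Of its 8 tested probe sets, 4 were called higher and 3 lower. Most carry the suffix that marks probes shared with other genes. Pdxdc1, which encodes a decarboxylase domain protein, had a similar split: 1 probe set read 702, 691 and 832 against 11.4, 6.10 and 14.7 (-5.76 ± 0.24), and another read 34.8, 36.9 and 41.8 against 471, 428 and 397 (3.40 ± 0.14). Adi1, an enzyme of methionine salvage, had probe sets at -3.61 ± 0.31 and 1.32 ± 0.19. The zinc finger gene Zfp991 had -2.45 ± 0.19 and 1.74 ± 0.22, and Rabgap1l, a regulator of Rab GTPases, ran from -0.42 ± 0.079 to 3.33 ± 0.25. The widest fall of any probe set was one of Gsn, the actin-severing protein gelsolin, chosen after its values were seen. It read 10998, 11558 and 11756 in the wild type and 19.1, 22.5 and 20.8 in the knockout-labelled arrays, -8.88 ± 0.10 (adjusted p = 7.3e-09). The other 3 tested Gsn probe sets were at -0.78, 0.055 and 0.084, of which only the first was called. Of 5061 genes with at least 2 tested probe sets, 598 had a call, and in 76 of these all probe sets were called the same way. In 503 some were called and others not, and in 19 the calls were opposite. In 17 of the 19, every called probe set kept its sign in the CLP arrays. Probe sets that differ in sequence within a gene cannot be told apart here from differences in its transcripts.

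**Figure D2:**
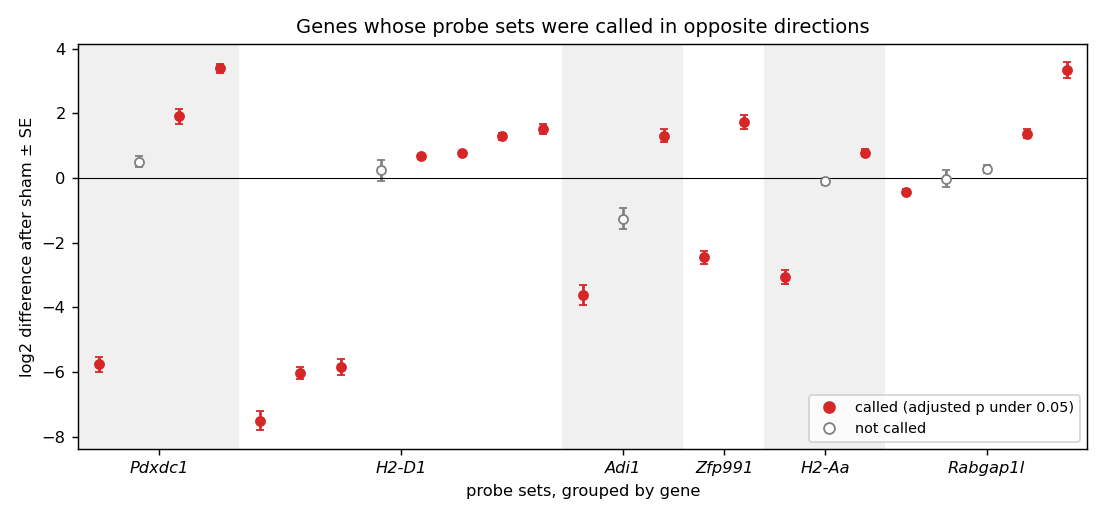
Log2 difference (knockout-labelled minus wild type, sham) with its SE for every tested probe set of the 6 genes whose called probe sets span the widest opposite range, filled where called. The probe sets of H2-D1 run from -7.50 to 1.52 and those of Pdxdc1 from -5.76 to 3.40.

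Interferon-gamma-induced GTPases, which attack the vacuoles of intracellular pathogens, and related genes were called higher in 5 of 13 tested members and lower in none, with a median of 1.19. Over all genes 3.42% were called higher. The promoters of 2 called members, with the same response element in capitals, were as follows.
Gbp2 (chr3:142620563-142620662, plus strand): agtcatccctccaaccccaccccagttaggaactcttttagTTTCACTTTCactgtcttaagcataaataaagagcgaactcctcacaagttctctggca
Irgm2 (chr11:58214877-58214976, plus strand): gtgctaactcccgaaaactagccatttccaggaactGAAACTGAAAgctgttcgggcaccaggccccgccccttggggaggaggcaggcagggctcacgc
The element was found in 7 of the 10 members with a promoter. Gbp2 read 299.5, 313 and 293 on the wild-type arrays and 1938, 895 and 626 on the knockout-labelled arrays, and its difference was 1.76 ± 0.35 (adjusted p = 0.027). Irgm2 went from 138, 126 and 74.7 to 571, 297 and 285, 1.70 ± 0.32 (adjusted p = 0.02). Gbp7 was at 1.56 ± 0.36, Ifngr2, a chain of the interferon-gamma receptor, at 0.96 ± 0.19, and Ciita as given above. The knockout-labelled arrays differed among themselves: relative to the wild-type mean the list stood at 1.96, 0.92 and 0.46 (mean log2 difference) on arrays 1, 2 and 3. Its summed signal was 3652, 3310.4 and 3164 on the wild-type arrays and 14440.1, 6205 and 4469.8 on the knockout-labelled ones. The uncalled members Igtp, Iigp1, Irgm1 and Gbp6 had log2 differences of 1.44, 1.69, 1.09 and 1.67. Without array 3, 11 members were called higher and 1 lower, beside 9.42% and 7.85% of all genes. Gbp2b, a member of the same GTPase family that the list did not hold, was lower: 222, 191 and 188 against 26.8, 28.0 and 10.7, -3.09 ± 0.31 (adjusted p = 0.0014). The calls of Gbp2, Irgm2, Gbp7 and Ifngr2 held in 1 to 3 of the 6 fits that left out 1 array (adjusted p up to 0.16).

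Genes induced by type I interferon were called in 3 of 25, all higher, beside 3.42% of all genes called higher, with a median of 0.39. Without array 3, 8 were called higher (9.42% of all genes). In the CLP arrays 12 were called higher, with a median there of 1.11, where 29.9% of all genes were called. With all 12 arrays in 1 model, 1 was called higher after sham, where 1053 of 22979 probe sets were called higher. Oasl2, an oligoadenylate synthetase-like antiviral protein, read 70.1, 55.3 and 50.1 against 269.5, 193 and 427, 2.21 ± 0.28 (adjusted p = 0.004). Oas1a and Cmpk2 were called at 0.78 ± 0.17 and 0.83 ± 0.18. The other members ran from -0.19 for Oasl1 to 1.38 for Zbp1, a sensor of nucleic acids, and included Ifit1 at 0.39 and Irf7 at 0.24. Of the p200 family of DNA sensors, 2 of 3 tested members were called, both higher, and 1 after centring or quantile normalisation. With all 12 arrays in 1 model none of these members was called after sham. Ifi202b read 31.1, 26.1 and 23.6 against 46.6, 67.0 and 95.5 (1.22 ± 0.28) and Mndal 571, 503 and 567 against 868, 703 and 1009 (0.64 ± 0.14). In the CLP arrays Ifi202b was at 3.76, and the genotype differences of Ifi202b after the 2 operations differed (adjusted p = 0.037). The calls of Oas1a, Cmpk2, Ifi202b and Mndal held in 1 to 2 of the 6 fits that left out 1 array (adjusted p up to 0.16).

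Transcripts of cardiac muscle were called higher in 13 of 17 tested members and lower in none, beside 3.42% of all genes called higher. The list's median was 1.36 against 0.012 over all genes. In mice, heart muscle extends along the pulmonary veins into the lung. In whole tissue, fewer cells of a type and less RNA per cell cannot be told apart, here as for every cell type below. Actc1 read 465, 523 and 459 on the wild-type arrays and 2813, 3675 and 2342 on the knockout-labelled arrays; Actc1 encodes cardiac actin, and its difference was 2.58 ± 0.16 (log2, adjusted p = 0.00018). Myh6, the alpha myosin heavy chain of heart muscle, read 695, 715 and 517 against 1817, 2889 and 2079.9, 1.80 ± 0.19. Csrp3 and Ttn, proteins of the sarcomere's Z disc and spring, were at 1.90 ± 0.21 and 1.96 ± 0.23. The uncalled members were Myh7 (-0.21), Myl1 (-1.19), Nppa (-0.74) and Cox8b (0.61). The list's summed signal was 5407, 5815 and 5025 on the wild-type arrays and 13476, 20209.5 and 12700.2 on the knockout-labelled arrays. No member was at 0, and 14 of 17 were above the array median on all 6, beside 90.5% of all tested genes. Array 3 was not apart here: the means relative to wild type were 0.87, 1.59 and 0.91. In the CLP arrays, 4 members were called higher and 3 lower, where 29.9% of all genes were called. How much heart or vein tissue entered each sample was not tested.

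**Figure D3:**
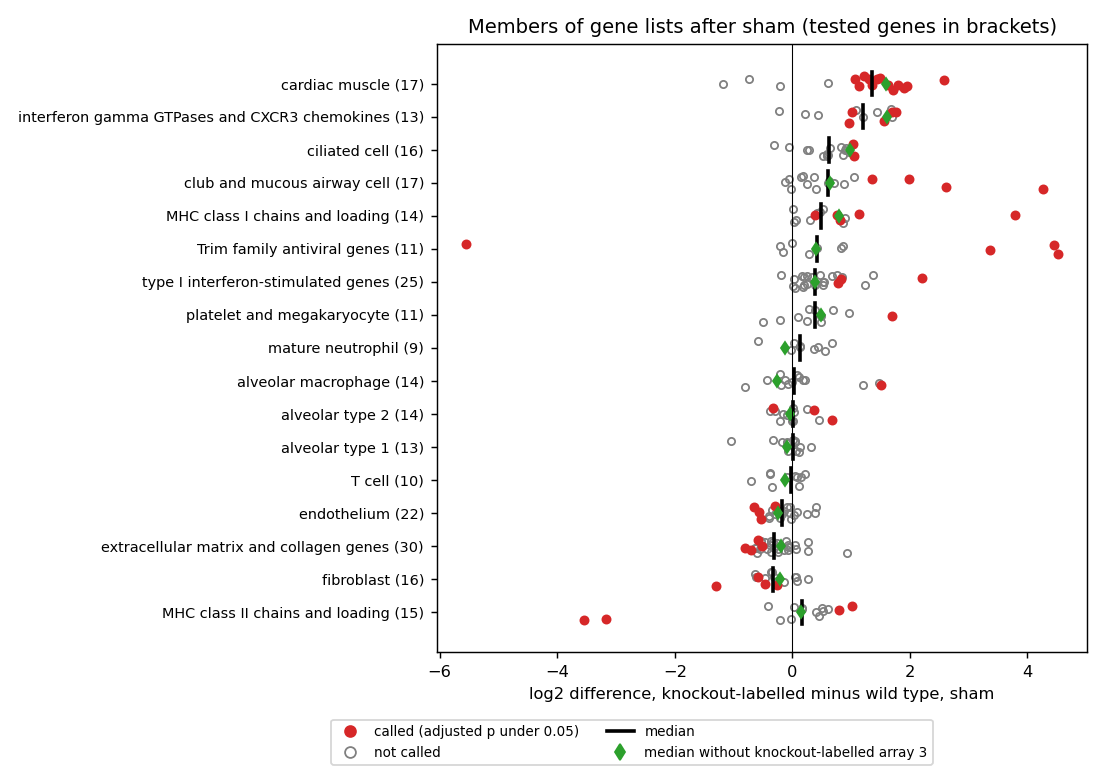
Log2 difference (knockout-labelled minus wild type, sham) of each tested gene in 17 gene lists, filled red where called; black bars are list medians and green diamonds the medians without knockout-labelled array 3. The cardiac muscle list has its median at 1.36 with 13 of 17 genes called (6.08% of all genes), and the ciliated cell median moves from 0.63 to 0.98 without array 3.

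Genes of club and mucous airway cells were called higher in 4 of 17 tested members and lower in none (median 0.61), beside 3.42% of all genes called higher. Clca1, a product of goblet cells that regulates mucus, read 2.51, 0.436 and 1.23 on the wild-type arrays and 46.5, 122 and 123 on the knockout-labelled arrays, 4.27 ± 0.42 (2.52 with the larger pseudocount). Reg3g, an antibacterial lectin, read 198, 409 and 299 against 1597, 2622 and 1373, 2.61 ± 0.30 (adjusted p = 0.0027). Bpifb1, which binds bacterial products in airway fluid, was at 1.98 ± 0.26, and the mucus peptide Tff2 at 1.36 ± 0.22. The abundant club cell genes were not called, with -0.13 for Scgb1a1, 0.19 for Scgb3a2 and -0.029 for Cyp2f2. Without array 3, 12 members were called higher, beside 9.42% of all genes. The call of Tff2 held in 5 of the 6 fits that left out 1 array (adjusted p up to 0.067).

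Genes of motile cilia depended on array 3. With all arrays, Tekt4 (1.05 ± 0.21) and Ccdc39 (1.04 ± 0.22), both structural proteins of the axoneme, were called among 16 tested members, and the median was 0.63. Ccdc39 read 123, 122 and 107 on the wild-type arrays and 310.1, 275 and 171 on the knockout-labelled arrays. Relative to the wild type the list stood at 0.85, 0.95 and 0.0096 on knockout-labelled arrays 1, 2 and 3. Without array 3, 13 members were called higher, none lower, with a median of 0.98. Over all genes the share called higher also rose, from 3.42% with all arrays to 9.42% without array 3. The regulator of motile ciliogenesis Foxj1 moved from 0.61 with all arrays to 1.01 without array 3. In the CLP arrays none was called higher and 1 lower, where 29.9% of all genes were called. The calls of Tekt4 and Ccdc39 held in 1 of the 6 fits that left out 1 array (adjusted p up to 0.14).

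With all arrays, the matrix, endothelial and fibroblast genes that were called were lower. Over all genes 2.65% were called lower, beside which the counts of lower genes in this paragraph stand. Of the extracellular matrix list, 4 of 30 tested genes were lower and none higher (median -0.32). Col4a1, a collagen of basement membranes, read 5492, 5584 and 5617 on the wild-type arrays and 3829.8, 4109.6 and 3777 on the knockout-labelled arrays, -0.51 ± 0.064 (adjusted p = 0.0037). Col6a1 was at -0.58 ± 0.086 and the matrix proteases Mmp2 and Mmp14 at -0.70 ± 0.12 and -0.81 ± 0.14. Of the endothelial markers 4 of 22 were lower (median -0.18). The angiopoietin receptor Tek read 2021, 1916 and 1881 against 1235, 1255 and 1419, -0.57 ± 0.085 (adjusted p = 0.0076). The junction genes Cdh5 and Esam were at -0.53 ± 0.11 and -0.29 ± 0.069, and the guidance receptor Robo4 at -0.65 ± 0.14. Pecam1 and Cldn5, at -0.21 and -0.17, were not called. Fibroblast markers were lower in 4 of 16 (median -0.33), and the largest difference was that of Mfap4, a microfibril protein, at 3008, 3143 and 2941 against 1921, 1101 and 864 (-1.31 ± 0.25). Slit2, Pdgfra and Inmt followed at -0.58 ± 0.12, -0.46 ± 0.10 and -0.25 ± 0.056. Of the smooth muscle and pericyte list the pericyte genes Pdgfrb (-0.47 ± 0.091) and Cspg4 (-1.003 ± 0.20) were lower, while the smooth muscle genes Acta2 and Myh11, at 0.39 and 0.67, were not called. Lymphatic Mmrn1 and Reln were higher, at 1.02 ± 0.16 and 0.73 ± 0.17, 2 of 5 tested genes of that list, beside 3.42% of all genes called higher. After centring 1 of the lymphatic genes was called higher, and after quantile normalisation 1. Without array 3 the median of the lymphatic list went from 0.37 to -0.030, with 2 called higher. After centring, 6 matrix, 4 endothelial and 4 fibroblast genes were called lower, and after quantile normalisation 5, 4 and 2. Without array 3, 9, 8 and 5 were lower and 1 of each list was higher, beside 7.85% and 9.42% of all genes. Another Pdgfra probe set, not called, was at 0.34. The calls of Col6a1, Mmp2, Mmp14, Tek, Cdh5, Esam, Robo4, Mfap4, Slit2, Pdgfra, Inmt, Pdgfrb, Cspg4, Mmrn1 and Reln held in 1 to 5 of the 6 fits that left out 1 array (adjusted p up to 0.19).

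Among leukocyte lists, calls were scattered, where 6.08% of all genes were called. Called were 2 of 12 monocyte and interstitial macrophage genes and 1 of 8 plasma cell and immunoglobulin genes. In the NK cell list 1 of 8 was called, in the B cell list 1 of 11 and in the platelet list 1 of 11. None was called among 10 T cell, 7 dendritic cell, 4 granulocyte precursor and 3 mast cell genes. The immunoglobulin heavy chain of mucosal antibody, Igha, was higher at 2.31 (adjusted p = 0.023). The joining chain Jchain (1.90) and Igk (2.42) were not called. Of monocyte and macrophage genes, Fcgr4, a receptor for IgG, read 59.3, 62.2 and 68.1 against 129.9, 133 and 131 (1.02 ± 0.14), and Csf1r, the receptor for macrophage growth factor, was at 0.37 ± 0.079. The NK receptor gene Klrk1 was at 1.28 and the platelet chemokine gene Ppbp at 1.69, both called. Of the pattern recognition list only Cd14, a co-receptor for endotoxin, was called, at 0.95 among 19. Of 9 mature neutrophil markers none was called by limma, none had an unadjusted p under 0.05, and none was called without array 3. Array 3 differed here, with means of -0.46, 0.10 and 0.93 on the 3 knockout-labelled arrays and -0.28, -0.10 and 1.002 for alveolar macrophage markers. The summed macrophage signal was 10535, 10708 and 11035 on the wild-type arrays and 9248, 9954 and 19390.2 on the knockout-labelled arrays. With all arrays only Fabp1 of 14 macrophage genes was called, higher. Without array 3, 3 were higher and 8 lower, beside 9.42% and 7.85% of all genes. The call of Csf1r held in 2 of the 6 fits that left out 1 array (adjusted p up to 0.16). The part of these cells in the other differences was not tested.

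**Figure D4:**
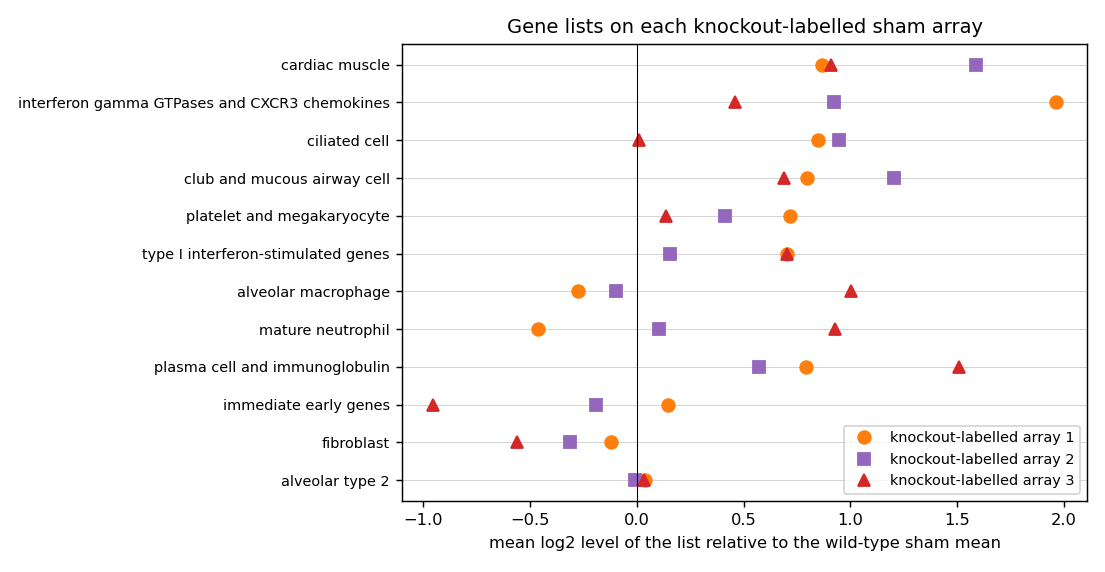
Mean log2 level of 12 gene lists on each of the 3 knockout-labelled sham arrays, relative to the wild-type sham mean (0). Array 3 (triangles) lies at 0.0096 for the ciliated cell list and 1.002 for alveolar macrophages, apart from arrays 1 and 2, and with them for alveolar type 2 cells.

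The remaining large falls came from many families. Otulinl, a relative of the deubiquitinase Otulin, read 101, 163 and 106 against 3.39, 2.61 and 0.701 (-4.47 ± 0.31), and Bcan, the matrix proteoglycan brevican, 135, 178 and 175 against 9.09, 8.00 and 3.43 (-4.05 ± 0.28). Cd200r4, a paired receptor of myeloid cells, was at -3.24 ± 0.38. With the larger pseudocount Otulinl was at -2.82 and Cd200r4 at -1.79. Baiap2l1, which links membrane curvature to actin, was bright in the wild type, 2801, 2896 and 2995, and fell to 412, 355 and 295, a difference of -3.03 ± 0.12 (adjusted p = 2.6e-05). D17H6S56E-5, in the MHC region of chromosome 17, was at -2.98 ± 0.16, and the tenascin Tnn at -2.66 ± 0.27. Taf7, a subunit of the general transcription factor TFIID, was at -2.65 ± 0.23. Mid1, a ubiquitin ligase on the X chromosome, read 272, 401 and 413 against 51.4, 105 and 16.8 (-2.86 ± 0.53). The call of Mid1 held in 2 of the 6 fits that left out 1 array (adjusted p up to 0.1).

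Several further large rises started near the floor in the wild type. Mrap2, an accessory protein of melanocortin receptors, read 2.72, 1.59 and 3.31 against 105, 107 and 76.2 (4.04 ± 0.27). Gpc5, a glypican, had its highest value on array 3, with 1.83, 2.91 and 3.70 against 51.9, 62.2 and 158 (3.74 ± 0.43). Klra16, a Ly49 receptor gene with close copies, was at 3.74 ± 0.38, the protease inhibitor Spink2 at 3.27 ± 0.31 and the Jun antisense transcript Junos at 3.24 ± 0.40. With the larger pseudocount these 5 differences were 2.50, 2.29, 2.33, 1.93 and 2.04.

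Genes known to vary between inbred mouse strains were split. Of 10 tested, 2 were called higher and 2 lower, beside 3.42% and 2.65% of all genes. H2-Ea is described above. Alpl, tissue-nonspecific alkaline phosphatase, read 92.5, 88.1 and 101 against 27.1, 32.4 and 32.5 (-1.51 ± 0.17), the glypican Gpc3 453, 364 and 359 against 756, 816 and 614 (0.89 ± 0.14), and the glyoxalase Glo1 was at 0.37 ± 0.076. Alad, the second enzyme of heme synthesis, read 1172, 1031 and 1505 against 361, 405 and 884. At -1.27 ± 0.32 it missed the threshold with all arrays (adjusted p = 0.06) and stood at -1.67 (adjusted p = 0.00013) without array 3. The others were not called: Nnt at -0.008, Zhx2 at -0.045, Afp at 0.56, Prkdc at -0.12 and Ide at 0.29. The sex-linked genes Xist, Eif2s3y, Kdm5d and Uty were not called by limma, at 0.12, -0.017, 0.11 and 0.43, and 1 of the 4 had an unadjusted p under 0.05. The calls of Gpc3 and Glo1 held in 1 to 4 of the 6 fits that left out 1 array (adjusted p up to 0.14).

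Metabolic and signalling lists gave scattered calls. The glutathione transferases Gsto1 (1143, 1263 and 1212 against 2409, 2917 and 2295, 1.07 ± 0.11) and Gsta3 (0.70 ± 0.16) were the only called members of 31 antioxidant genes, a share near the 6.08% of all genes. Without array 3, 8 of them were called higher. Over all genes without array 3, 9.42% were called higher and 7.85% lower, here and for the lists that follow. The sulfotransferase Sult1d1 (1.28 ± 0.17) and the cytochrome Cyp4a12a (2.18 ± 0.52, 1.35 with the larger pseudocount) were higher among 29 xenobiotic enzymes, where 10 were higher and 1 lower without array 3. Msmo1 and Idi1, enzymes of cholesterol synthesis, were at 0.54 ± 0.11 and 0.54 ± 0.13, 2 of 16 of that list, with 5 higher and 1 lower without array 3. The chemokine genes Ccl27a and Ccl8 were higher, 2.55 ± 0.34 and 1.05 ± 0.20, among 13 genes. Of 15 complement genes, the regulator Cd55 was called lower (-0.58 ± 0.12) and the regulator Cd59a higher (0.72 ± 0.16), beside 2.65% and 3.42% of all genes. After centring, 1 complement gene was called lower and none higher. Of the hedgehog and Wnt list, the Wnt modulator Sfrp2 was lower, 117, 113 and 104 against 31.6, 33.1 and 17.9 (-1.93 ± 0.24). The ligands Wnt7a (0.77 ± 0.17) and Wnt3a (2.38 ± 0.55) were called higher by their brightest probe sets, and another Wnt7a probe set was called lower (-1.19). After quantile normalisation neither ligand was called higher, and without array 3 the list had 4 higher and 4 lower. Of alveolar type 2 genes, Il33, an alarmin, was at 0.67 ± 0.13, the surfactant protein gene Sftpb at -0.33 ± 0.068 and the lipid enzyme Lpcat1 at 0.36 ± 0.083, and the list median was 0.0042. The calls of Gsta3, Cyp4a12a, Msmo1, Idi1, Ccl8, Cd55, Cd59a, Wnt7a, Wnt3a, Il33, Sftpb and Lpcat1 held in 1 to 2 of the 6 fits that left out 1 array (adjusted p up to 0.19). Single calls in further lists, beside 6.08% of all genes, were Mcm6, a subunit of the replicative helicase, at 1.79 (1 of 16 cell cycle genes), and Vpreb3 at 0.72 (1 of 11 B cell genes). Others were Bpgm, an erythroid enzyme, at 1.20 (1 of 4), and Ccn2, a matrix signalling protein, at -0.55 (1 of 22 immediate early genes). With all 12 arrays in 1 model the B cell and immediate early lists had no call after sham.

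Several lists had no call by limma. Over all genes 23.4% had an unadjusted p under 0.05. The number with one was 5 of 17 heat shock chaperones, 4 of 17 clock genes and 6 of 17 glucocorticoid-responsive genes. It was 3 of 9 acute phase genes, 2 of 13 alveolar type 1 markers and 0 of 10 T cell markers. Without array 3, 7 glucocorticoid-responsive genes were called lower and 1 higher, and 5 clock genes lower and 2 higher. Over all genes 7.85% were then called lower and 9.42% higher.

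Calls were found on every chromosome compared, from 2.99% of tested genes on the X to 7.53% on chromosomes 14 and 17. In runs of 25 neighbouring tested genes the median was 1 call, and 2 of 443 runs held 8. The first, on chromosome 1 from Pla2g4a to Acbd6, had 6 lower and 2 higher, and the second, on chromosome 4 from B330016D10Rik to Agtrap, 4 of each. The chromosome 7 run that ends with Trim30d held 6. Around Tac1, the run held 3 calls, Gm20559, Pon1 and Tac1 itself. Of the 18 tested genes before Tac1 on chromosome 6, 2 were called, and of the 25 after it none by limma, beside 6.08% of all genes. Without array 3, 6 were called after it, beside 17.3% of all genes. The 5 nearest tested genes on each side were not called. They ran from -0.13 for Sem1, a proteasome subunit, to 0.81 for Umad1, with 0.38 for asparagine synthetase (Asns) and 0.14 for the kinase Pdk4.

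The same genotype contrast in the CLP arrays, which share no sample with the sham arrays, gave the same sign for 1280 of the 1425 calls (89.8%). It gave a call of the same sign for 903 (63.4%) and of the opposite sign for 18. There, 28.2% of all tested probe sets were called, and of those not called after sham 61.1% had the same sign. Calls of at least 2-fold had the same sign in 95.6% and were called alike in 74.9%. Lower calls were repeated in 73.8% and higher calls in 54.6%. The 3703 calls made without array 3 had the same sign in 74.1% and a call of the opposite sign in 231 cases.

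**Figure D5:**
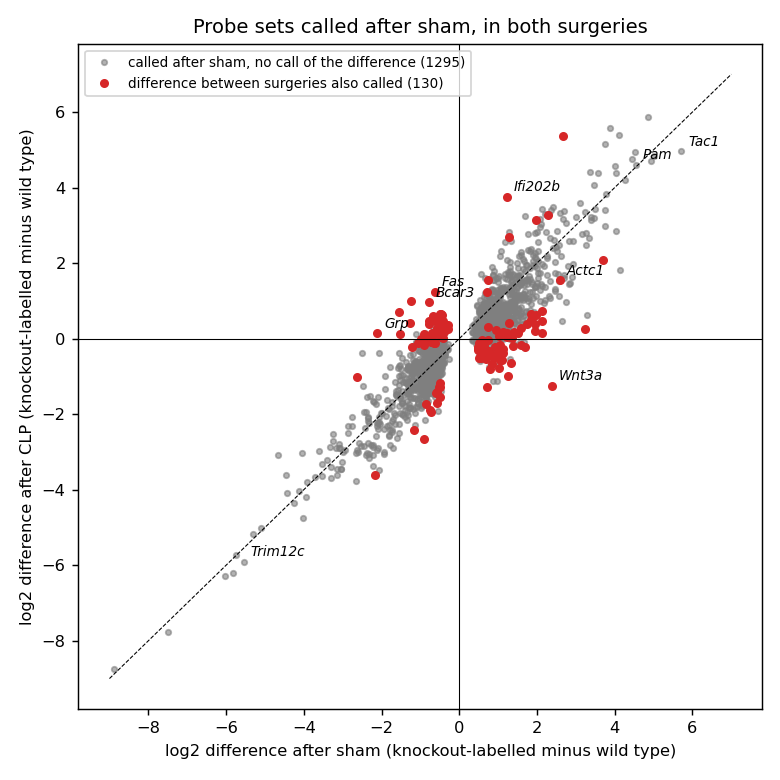
Log2 difference between knockout-labelled and wild-type lungs after CLP against that after sham, for the 1425 probe sets called after sham; the dashed line marks equality. Most points lie near the line, and the 130 red points are those whose genotype difference itself differed between the surgeries.

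A test of the difference between the surgeries, over all 12 arrays, called 950 of 22979 probe sets (4.13%), 130 of them among the sham calls, and 5.06% of genes. Bcar3, an adaptor of integrin signalling, read 805, 922 and 844 against 496, 524 and 466 after sham, and its genotype difference was -0.79 after sham and 0.97 after CLP. Fas, the death receptor, behaved alike at -0.63 after sham and 1.24 after CLP. Grp, the gene for gastrin-releasing peptide, read 65.4, 82.4 and 78.6 against 11.1, 7.36 and 33.7 after sham, and stood at -2.12 after sham and 0.15 after CLP. Klhl29, a kelch protein, was at -1.28 after sham and 0.42 after CLP. Higher after sham and not after CLP were Cfap61, a protein of the ciliary axoneme (2.13 after sham and 0.16 after CLP), and Pgr, the progesterone receptor (1.59 after sham and -0.17 after CLP). Stk36, a serine/threonine kinase, read 18.5, 21.4 and 25.9 against 91.2, 88.2 and 149, or 2.12 after sham and 0.47 after CLP. Adh1, an alcohol dehydrogenase, was lower after both, -0.90 after sham and -2.65 after CLP. Wnt3a turned from 2.38 to -1.24. Alpl (-1.51 after sham and 0.12 after CLP), Ttn (1.96 after sham and 0.40 after CLP), Tekt4 (1.05 after sham and -0.40 after CLP) and Ccdc39 (1.04 after sham and -0.57 after CLP) also differed between the surgeries. The calls of Fas, Grp, Klhl29, Cfap61 and Pgr held in 1 to 4 of the 6 fits that left out 1 array (adjusted p up to 0.13). The count of 950 was 3171 without knockout-labelled sham array 3 and 2541 without knockout-labelled CLP array 1, and between 87 and 417 in 9 of the other 10 fits that left out 1 array. Of the genes described above, Tac1, Pam, Trim12c, Trim5 and H2-Eb1 were not called in this test.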

How the data were processed

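Lung RNA was measured on Affymetrix mouse expression arrays with 45101 probe sets, 64 of them controls. The deposited values are scaled signal intensities per probe set, made by the authors with GCOS, MAS5 and Affymetrix Expression Console, per the submitters' processing notes; versions and roles are not given in the sources used here. The trimmed mean was 150.0 on every array. Log2 of signal plus 3.48 (10% of the median array median) was fitted with limma 3.58.1 in R 4.3.3 (lmFit, eBayes with trend) on the 6 sham arrays, over 22979 probe sets that exceeded the array's median signal on 3 or more of them. Calls are at a Benjamini-Hochberg adjusted p under 0.05. The fit was also run on simulated data with known changes, and the outcome is not given here. Those data had the same spread in both groups and no array that stood apart, unlike the arrays compared. Arrays give no read depth, and their number limits the precision.

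Gene names came from the platform annotation: 34945 probe sets had 1 symbol, 932 several and 9160 none, and 34741 matched RefSeq (GRCm38.p6), which was used for names, order and promoters. A gene was represented by its tested probe set of highest mean log2 signal. Named were the 12 largest called rises and falls with no overlap between groups, up to 4 called members of each list with at least 2 calls, the tachykinin, sex-linked and strain-variable genes, the 5 tested genes on each side of Tac1, the 6 largest differences between surgeries in each direction, up to 6 genes with opposite probe sets, and up to 2 members of other lists. Gsn, Fabp1, Psmb8, Foxj1 and the uncalled or singly called list members beyond these were chosen after their values were seen. The members and the 55 lists were chosen with earlier results of these data known. Alternatives were quantile normalisation, centring, a pseudocount of 17.4, a floor, other filters, other moderation, array weights, a block for the replicate number, all 12 arrays in 1 model and each array left out. List counts without array 3 or under other scalings were added after seeing the data.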

Additional observations from a re-analysis of the deposited data

Results flagged for a closer look

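For 20 of the results the genotype difference after sham differed from that after CLP by limma's test of the difference (adjusted p under 0.05), given here as the sham minus the CLP difference (log2). More positive after sham than after CLP were Wnt3a (3.62), Cfap61 (1.97), Pgr (1.76), Stk36 (1.65), Ccdc39 (1.61), Ttn (1.56), Tekt4 (1.45), Sdhaf3 (1.11), Actc1 (1.03) and Ide (0.53). Adh1, lower after both, had 1.75. Below 0 were Ifi202b (-2.54), Grp (-2.27), Fas (-1.87), Bcar3 (-1.75), Klhl29 (-1.70), Ramp3 (-1.68), Alpl (-1.63), Esam (-0.56) and Rabgap1l (-0.43). Ramp3, Ide and Sdhaf3 were not called after sham alone.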

How the results depend on the processing

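The main fit made 1425 sham calls, and the fit with the replicate block made 1070 (591 higher, 479 lower), without a count of how many they share. Correlations of same-numbered arrays' deviations were 0.0036, 0.095 and 0.074. Those of differently numbered arrays ran from -0.093 to 0.048. Whether arrays of the same number share more than the number was not tested. Array weights gave 3581 calls (1908 higher, 1673 lower), 682 were at least 2-fold, and leaving out 1 array gave 526 to 3703 (higher 308 to 1973, lower 215 to 1730). Of calls with the same sign and called after CLP, 903, the count was 580 with the filter on all arrays, 1815 with array weights, and 428 to 1516 with 1 array left out. The difference between surgeries, 950 calls, gave 557 with no filter, 5736 with array weights and 87 to 3171 with 1 array left out. The Actb ratio difference of -0.00091 was -0.038 to 0.022 with 1 array left out. Tac1 kept its direction and its call in the alternatives that tested it; the filter on all 6 arrays leaves it out. Of 2108 values of 126 other named genes, 1766 kept direction and side of the threshold, 300 lost the call, 23 gained it and 19 reversed, in 8 genes of which none was called. With 1 array left out, Calcrl ran from -0.38 to 0.027, Adm from -0.68 to 0.57, Eif2s3y from -0.10 to 0.041, Kdm5d from -0.10 to 0.32, Nnt from -0.085 to 0.049, Zhx2 from -0.13 to 0.069, Pdk4 from -0.13 to 0.45 and Rpa3 from -0.028 to 0.28 (log2). Array weights reversed Adm (0.43), Kdm5d (-0.043), Zhx2 (0.058) and Pdk4 (-0.10), and quantile normalisation Nnt (0.022). Of 95 called genes 44 were called in every alternative. The cause was not tested, except that fits without 1 array have fewer samples. Signals near the floor limit the size of many differences.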
